A study of Homo sapiens with 30 samples.

Results

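The broad H3K9me3 peaks of control cells are the widest stretches of this repressive mark that a peak caller drew in HEK293T, a human embryonic kidney cell line. They were selected on a measured value, a width of at least 2500 bp in the H3K9me3 NC list on chromosomes 1 to 22. The rule took 829 of the 75538 H3K9me3 NC peaks on these chromosomes. All cells were transfected with antisense oligonucleotides (ASOs), synthetic strands that pair with an RNA and cause its loss, and were fixed 48 hours later. H3K9me3 was profiled after a negative control ASO (NC) and after ASOs against LINC00662 (ΔLINC00662), and H3K27me3 after the NC ASO, after an ASO against LINC00641 (ΔLINC00641) and after an ASO against SETD5-AS1 (ΔSETD5-AS1). The track lines of the lists name a mix of ASOs for LINC00662 and a single ASO for each of the other targets. Each of these 5 groups had 3 ChIP libraries and 3 input libraries (sheared chromatin without immunoprecipitation), which were merged before peaks were called. Each group is therefore 1 peak list, replicate error could not be computed, and no test between groups was possible. Peak lists hold no RNA, so the depletion of the targets and the identity of the cells were not checked here.

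H3K9me3 is the mark of constitutive heterochromatin. It is written by SETDB1 and the SUV39H enzymes and bound by HP1 proteins, and it silences repeats near centromeres, transposable elements and some gene clusters. C2H2 zinc finger genes, a large family of DNA binding repressors many of them in clusters on chromosome 19, carry the mark over their own bodies and 3′ ends, where ZNF274 and TRIM28 bring in SETDB1. H3K27me3, written by the Polycomb enzyme EZH2, usually marks other silent genes, and the clustered protocadherin genes, which encode neuronal cell surface proteins, can carry either mark.

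The broad peaks were 1.10% of the autosomal H3K9me3 NC peaks and held 2.77 of their 49.1 Mb, 5.65% of the base pairs. Their median width was 2970 bp and the widest spanned 15103 bp, against a median of 477 bp over all autosomal peaks. By width, 428 measured under 3000 bp, 273 from 3000 to under 4000 bp, 81 from 4000 to under 5000 bp and 47 at least 5000 bp. The limit cut through a continuous range. The 3 narrowest that were taken measured 2500, 2502 and 2502 bp, with 12.8%, 0% and 80.4% of their bases inside peaks of the ΔLINC00662 list, and the 3 widest that were left out measured 2499, 2499 and 2498 bp, with 61.7%, 35.9% and 38.1%. The fold enrichment and p-value of a peak were solved for the number of ChIP fragments at its summit and the local input level. A median of 44 fragments lay over the summits of the broad peaks, and their median fold enrichment over input was 4.04. Input was itself raised under them, with a median of 2.43 times the genome-wide level, against 1.32 over all autosomal peaks. The genome-wide level was 4.29 fragments per base in the NC list and 3.50 in the ΔLINC00662 list, so the ΔLINC00662 list was called at 0.815 of the NC depth.

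The following 300-base stretches show what the mark covers in the groups of broad peaks described below. All are the plus strand of GRCh37, whose autosomes have the coordinates of hg19, and capitals mark CpG dinucleotides unless stated. The first is the centre of the widest broad peak, chr21:10708945-10724047, which overlapped no annotated gene. Its window at chr21:10716363-10716662 had a GC content of 37.7% and 2 CpGs.

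Widest peak, chromosome 21: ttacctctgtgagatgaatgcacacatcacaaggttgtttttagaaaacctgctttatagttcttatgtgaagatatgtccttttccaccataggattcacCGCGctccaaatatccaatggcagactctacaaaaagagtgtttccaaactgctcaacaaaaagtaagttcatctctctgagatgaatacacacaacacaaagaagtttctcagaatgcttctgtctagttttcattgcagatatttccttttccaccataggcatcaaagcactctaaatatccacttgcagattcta

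The next window shows the repeated coding sequence of the zinc finger gene family. It was chosen after the values were seen, as the stretch richest in the 9-base word GGAGAGAAA, which encodes part of the linker between neighbouring zinc fingers. It lies at chr17:5086505-5086804 in the broad peak chr17:5084284-5086904, wholly inside coding sequence of ZNF594. Capitals here mark the 4 matches on the minus strand, written as the reverse complement TTTCTCTCC.

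ZNF594, coding exon: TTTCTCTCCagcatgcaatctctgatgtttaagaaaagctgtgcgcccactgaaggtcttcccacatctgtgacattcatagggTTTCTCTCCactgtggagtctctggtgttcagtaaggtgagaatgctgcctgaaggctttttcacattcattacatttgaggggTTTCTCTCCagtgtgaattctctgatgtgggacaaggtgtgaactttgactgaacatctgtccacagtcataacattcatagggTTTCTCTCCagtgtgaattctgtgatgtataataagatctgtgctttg

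The widest peak in a clustered protocadherin, chr5:140753491-140756646, had its summit in the large first coding exon of PCDHGA6, and 293 bases of the window chr5:140753644-140753943 were coding. It held 25 CpGs.

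PCDHGA6, summit: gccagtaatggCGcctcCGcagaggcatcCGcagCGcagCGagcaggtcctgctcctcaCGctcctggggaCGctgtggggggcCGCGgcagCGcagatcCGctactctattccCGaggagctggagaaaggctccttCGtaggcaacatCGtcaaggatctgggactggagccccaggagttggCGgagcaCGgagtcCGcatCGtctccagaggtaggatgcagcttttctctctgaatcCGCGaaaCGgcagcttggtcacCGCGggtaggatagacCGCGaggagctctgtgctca

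A peak that lay wholly inside the H3K27me3 NC list, chr6:161047862-161052077, was found in an array of near-identical copies within LPA, the gene of apolipoprotein(a). Its window, chr6:161049584-161049883, touched no exon.

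LPA, summit: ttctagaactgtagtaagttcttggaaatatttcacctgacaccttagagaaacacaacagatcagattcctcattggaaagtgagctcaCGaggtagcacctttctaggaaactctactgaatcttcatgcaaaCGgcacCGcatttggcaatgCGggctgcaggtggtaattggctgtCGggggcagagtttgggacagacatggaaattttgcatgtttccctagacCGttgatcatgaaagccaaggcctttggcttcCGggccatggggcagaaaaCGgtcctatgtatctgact

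The broad peaks were spread unevenly over the chromosomes. Chromosome 19 held 125 of the 829 (15.1%) but 6.26% of all autosomal H3K9me3 NC peaks, which gave 21.1 broad peaks per 10 Mb. The next densest were chromosome 13 with 4.95 per 10 Mb and chromosome 17 with 4.43 per 10 Mb, and the sparsest was chromosome 20 with 0.635 per 10 Mb. On chromosome 19, 87 of the 125 overlapped a C2H2 zinc finger gene. On chromosome 13, none of 57 did.

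**Figure D1:**
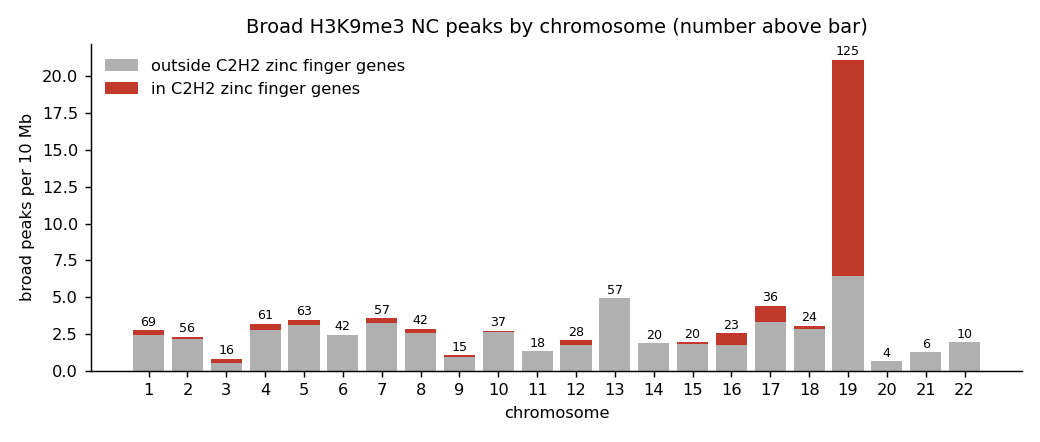
Broad H3K9me3 NC peaks per 10 Mb of chromosome (bars from 0), split into those that overlap a C2H2 zinc finger gene (red) and the others (grey), with the number of peaks above each bar. Chromosome 19 stands at 21.1 per 10 Mb and no other autosome passes 4.95.

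Of the 829 broad peaks, 549 (66.2%) overlapped an annotated gene, 388 (46.8%) a protein-coding gene and 177 (21.4%) an exon of one. For peaks of 1500 to under 2500 bp these shares were 61.6%, 41.1% and 9.02%, and for all narrower peaks 56.5%, 36.5% and 3.90%. C2H2 zinc finger genes were overlapped by 154 broad peaks, or 18.6% (95% Wilson interval 16.1 to 21.4, counting error only, since neighbouring peaks are not independent). The share was 8.11% for the 3537 peaks of 1500 to under 2500 bp and 4.06% for all narrower peaks. Exons of zinc finger genes were met by 111 broad peaks (13.4%), against 1.29% of the narrower ones. A wider peak meets more features by its length alone, and the summit, a single base, removes that: 17.2% of the broad peaks had their summit in a zinc finger gene, against 4.01% of the narrower peaks. Few broad peaks, 18 (2.17%), lay over a transcription start site of a protein-coding gene. The share was 1.41% for the peaks of 1500 to under 2500 bp and 0.34% for all narrower peaks. The summit lay within 1 kb of such a site in 3.14% of the broad peaks, against 2.21% and 1.13%. Broad peaks within 2 Mb of a chromosome end numbered 104 (12.5%, against 4.55% of narrower peaks), and 56 (6.76%, against 3.15%) lay within 1 Mb of an assembly gap of 1 Mb or more, which on most chromosomes is the centromere.

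Among the gene lists examined, 114 of 548 C2H2 zinc finger genes (20.8%) overlapped a broad peak, against 366 of 19229 protein-coding genes (1.90%). On chromosome 19 they were 68 of 261 zinc finger genes, and on the other autosomes 46 of 287. In the 114 genes a median of 45.4% of the gene body lay inside H3K9me3 NC peaks of any width, and 22.8% inside ΔLINC00662 peaks. The share was lower in the ΔLINC00662 list for 112 of the 114 and higher for 2. These genes were taken for their wide NC peaks, which favours a lower share in any other list. The whole ΔLINC00662 list was also smaller, with 29.6 Mb on the autosomes against 49.1 Mb in NC. The count is therefore no test of a loss at these genes. In the 434 zinc finger genes without a broad peak, the medians were 3.91% and 2.16%, and the share was lower for 232 and higher for 57. The median share inside each of the 3 H3K27me3 lists was 0% in both sets of genes.

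ZNF544 held the most broad-peak sequence of any named protein-coding gene, 26611 bp in 4 peaks over its body at chr19:58739960-58788861. An overlapping locus known only as ENSG00000283515 shares these 4 peaks. Peaks covered 69.6% of ZNF544 in NC and 47.2% in ΔLINC00662, with no base in any H3K27me3 list. In ΔLINC00662 its 14967 bp peak, chr19:58764850-58779816, was met by 9 peaks, the widest of 2718 bp, which together covered 66.2%. ZNF121 (chr19:9671005-9695180) showed the same break-up of a wide call. Its single broad peak of 14070 bp was met by 9 ΔLINC00662 peaks, none over 1579 bp, which covered 44.3% of it. The share of the ZNF121 body inside peaks was 82.7% in NC and 38.1% in ΔLINC00662. ZNF721, at the tip of the short arm of chromosome 4, held 7 broad peaks and 25259 bp, with 65.9% of its body covered in NC and 45.5% in ΔLINC00662. ZNF678 on chromosome 1 held 5 broad peaks, with 54.9% of its body covered in NC and 24.2% in ΔLINC00662. ZNF551 held 3 broad peaks, with 66.0% of its body covered in NC and 27.9% in ΔLINC00662. A second locus known by identifier, ENSG00000269026, overlaps ZNF551 and counts 5 broad peaks. The readthrough gene ZNF286A-TBC1D26 on chromosome 17 held 3 broad peaks, with 48.6% covered in NC and 32.0% in ΔLINC00662.

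ZNF274, whose product recruits SETDB1 to zinc finger genes, was the single gene of 19 H3K9me3 writers, readers and erasers to hold broad peaks. Its 3 broad peaks amounted to 14064 bp. Peaks covered 75.3% of its body (chr19:58694396-58724928) in NC and 54.9% in ΔLINC00662. ARHGAP39 on chromosome 8 was the other gene outside the zinc finger, protocadherin and LPA loci among the 15 with the most broad-peak sequence, with 4 broad peaks, 15.3% of its body covered in NC and 10.1% in ΔLINC00662.

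Along zinc finger genes the broad peaks lay over coding sequence more often than in other genes. Assigning each peak to the gene it overlapped most, 97 of 154 in zinc finger genes (63.0%) overlapped coding sequence, against 38 of 228 (16.7%) in other protein-coding genes, and 44 (28.6%) against 24 (10.5%) reached an exon at the 3′ end. The median summit stood at 56.9% of the distance from start to end of a zinc finger gene and at 41.2% in the other genes. The coding share of the gene bodies themselves is not given here, and the part of gene structure in these differences was not tested. The linker word GGAGAGAAA was searched on both strands. It occurred 2.99 times per 10 kb in broad peaks of zinc finger genes and 0.369 times in the other broad peaks, and in narrower peaks 1.67 and 0.219 times. In all, 33.8% of the zinc finger broad peaks held it, against 8.30% of the others and 1.59% of all autosomal H3K9me3 NC peaks, which are far shorter. Neighbouring matches on the same strand in zinc finger broad peaks were 84 bp apart in 54 of 120 cases, and at this spacing or a multiple of it in 109 of 120. This is 28 codons, the length of a zinc finger with its linker, and is visible in the ZNF594 window above. Of the 16 broad peaks with 5 or more matches, 15 overlapped an exon of a zinc finger gene, and the highest number, 14, was that of ZNF594. The ZNF594 peak had 24.4% of its bases in the ΔLINC00662 list.

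The clustered protocadherins held 10 broad peaks. Because their gene bodies overlap, these touched 31 of the 53 genes, and PCDHGA1, PCDHGA2, PCDHGA3 and PCDHGB1 had the most broad-peak sequence from the same 6 peaks in the gamma cluster. Between 29.9% and 32.1% of these 4 gene bodies was covered in H3K9me3 NC and between 23.5% and 24.4% in ΔLINC00662. Against a share of 54.8% over all broad peaks, 69.8% of the base pairs of the 10 protocadherin peaks lay in ΔLINC00662 peaks. In the H3K27me3 lists the 10 had 12.1% (NC), 3.51% (ΔLINC00641) and 7.66% (ΔSETD5-AS1) of their base pairs covered. Only 3, 1 and 2 of the 10 were met by at least 1 bp, so these shares rest on few peaks. In ΔLINC00641 the peak met was that at PCDHB1. The peak at PCDHB1, chr5:140430342-140432909, named after its values were seen, had 84.9% of its bases in H3K27me3 NC, the highest of the 10, with 38.2% in ΔLINC00641 and 70.7% in ΔSETD5-AS1. The median observed to expected CpG ratio was 0.738 in protocadherin peaks and 0.217 over all broad peaks.

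Other gene lists are set beside the 1.90% of all protein-coding genes that overlapped a broad peak. Olfactory receptor genes had 2 of 398 with a broad peak (0.503%), OR1F1 on chromosome 16 and OR4F17 on chromosome 19. The OR1F1 peak had 40.5% of its bases in the ΔLINC00662 list and the OR4F17 peak 0%. Of 30 imprinted genes, MEG3, a noncoding RNA of the DLK1 locus on chromosome 14, had 1 broad peak of 5333 bp (3.33% of the list), with 23.5% in the ΔLINC00662 list. No broad peak overlapped any of the 39 HOX genes, 149 keratin genes or 30 germline and meiosis genes, although NC peaks of any width met 2, 9 and 12 of them. At the share of all protein-coding genes, lists as short as the HOX, imprinted and germline lists would hold about 1 such gene or none, so their counts are not told apart from it.

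**Figure D2:**
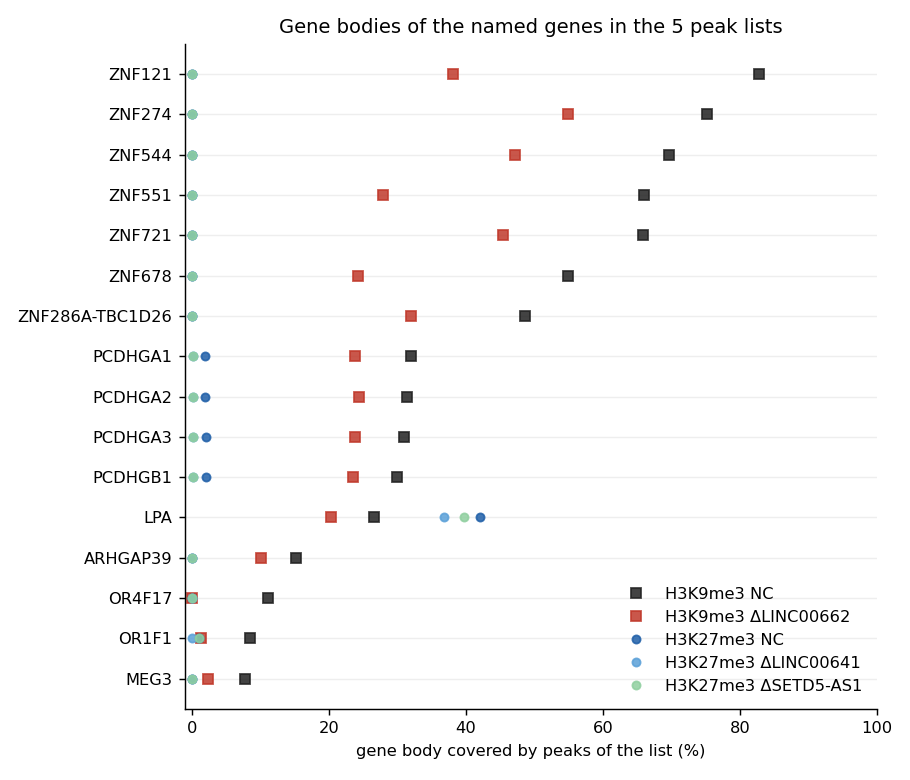
Share of each named gene body (percent of its length) inside peaks of the 5 lists, of any width, with squares for H3K9me3 and circles for H3K27me3. In each of the 16 genes the ΔLINC00662 square lies left of the NC square, and LPA is the gene whose H3K27me3 circles lie right of its H3K9me3 squares. The genes were named for their sequence inside broad NC peaks, which favours a lower ΔLINC00662 share.

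Taking broad peaks at most 100 kb apart as a group, 354 of the 829 (42.7%) had a neighbour, in 113 groups, and 475 stood alone. The share for narrower peaks is not given here. The caller can also split 1 domain into several peaks, which makes neighbours. The largest group lay near the end of the long arm of chromosome 19, chr19:57983999-58784462, where 32 broad peaks, 28 of them in zinc finger genes, held 137 kb in a span of 800.5 kb. Within this group 61.5% of the base pairs were inside ΔLINC00662 peaks and 0.649% inside H3K27me3 NC peaks, and single peaks ranged from 8.44% to 100% in ΔLINC00662. The next groups, of 9 each, were the zinc finger clusters at chr5:178304031-178498280 and chr4:296841-492067, with 62.9% and 68.8% of base pairs in ΔLINC00662, and the cluster at chr19:11715113-12063060 with 56.5%.

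The coverage of the broad peaks in the ΔLINC00662 list was then measured. In total 54.8% of their base pairs lay inside ΔLINC00662 peaks, with a standard deviation of 7.98 percentage points over the 20 chromosomes that held 10 or more of them and a range from 35.9% on chromosome 22 to 71.1% on chromosome 8. Nearly all broad peaks were met: 805 (97.1%) by at least 1 bp, where 38% of all autosomal H3K9me3 NC peaks were. Among peaks of 1500 to under 2500 bp it was 87.4%, and a wider peak is more easily met by its length alone. Coverage of at least 50% was reached by 460 broad peaks, or 55.5% (95% Wilson interval 52.1 to 58.8), where 26.7% of all autosomal NC peaks reached it. Of the peaks of 1500 to under 2500 bp, 43.7% did. Coverage was graded rather than present or absent. It was 0% in 24 broad peaks, up to 25% in 109, over 25% to 50% in 237, over 50% to 75% in 288, over 75% to 90% in 109 and above 90% in 62.

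Coverage rose with the width of the NC peak along the whole list. Peaks below 500 bp had 18.4% of their base pairs in ΔLINC00662 peaks, those of 500 to under 1000 bp 29.6%, those of 1000 to under 1500 bp 38.6% and those of 1500 to under 2500 bp 45.6%. Among the broad peaks it went on from 49.2% under 3000 bp to 54.5% under 4000 bp, 60.8% under 5000 bp and 68.2% from 5000 bp up. The broad peaks were covered more than those of 1500 to under 2500 bp on 18 of the 22 autosomes.

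**Figure D3:**
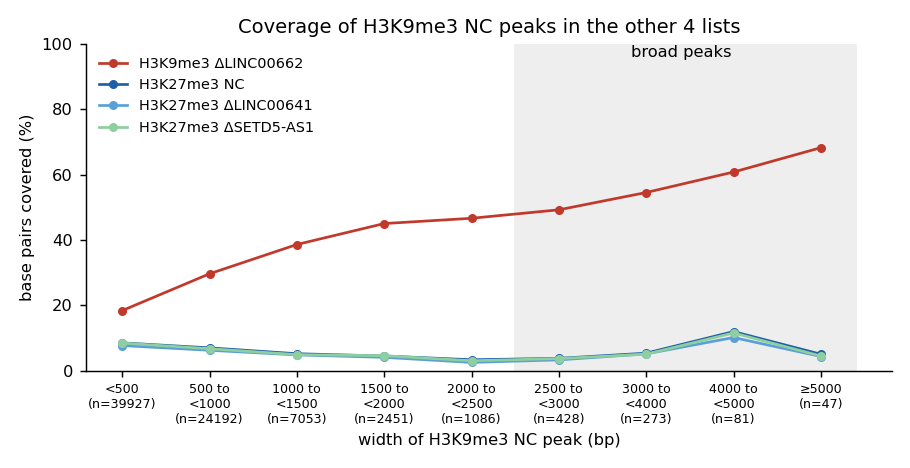
Share of base pairs of H3K9me3 NC peaks inside peaks of the other 4 lists (y axis, percent) by width of the NC peak (x axis, number of peaks in parentheses, broad peaks shaded). The ΔLINC00662 line climbs from 18.4% to 68.2%, and the 3 H3K27me3 lines stay at or below 11.9%.

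The ΔLINC00662 list seldom drew a broad peak as a single wide call. Of the broad peaks, 501 were met by 2 or more ΔLINC00662 peaks, up to 9, and 304 by 1. The widest ΔLINC00662 peak meeting a broad peak measured 1193 bp in the median, and 116 broad peaks touched one of at least 2500 bp. The NC summit lay inside a ΔLINC00662 peak in 684 broad peaks (82.5%). Scaled to a common length, coverage was highest at 61.5% between the left end and the middle and fell to 41.2% and 36.3% in the outermost of 20 equal parts on the left and on the right. Joining ΔLINC00662 peaks at most 1 kb apart, an alternative chosen after seeing the data, raised the share of base pairs from 54.8% to 66.5% and let 705 broad peaks be met by 1 joined peak. At the strongest ΔLINC00662 peak within each of the 805 broad peaks met, the median fold enrichment was 3.85, against 4.04 at the same broad peaks in NC, with the lower value in ΔLINC00662 at 436 of them (54.2%), and the median fragments at the summit were 33 against 45. The lower depth of the ΔLINC00662 list and the choice of peaks for their width in NC move with these differences, and their part was not tested.

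**Figure D4:**
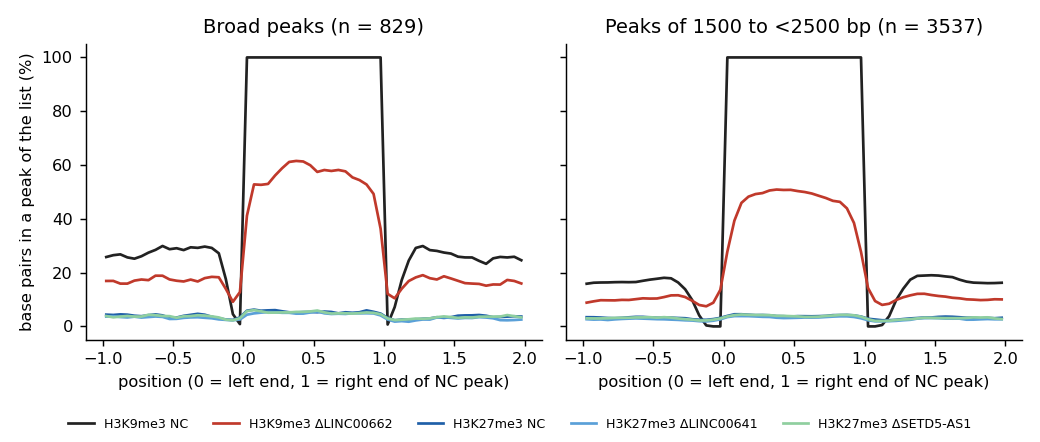
Share of base pairs inside peaks of each list (y axis, percent) along H3K9me3 NC peaks scaled to 1 width, with 1 width of flank on each side (x axis), for broad peaks (left) and peaks of 1500 to under 2500 bp (right). H3K9me3 NC is 100% inside by construction, ΔLINC00662 reaches 61.5% inside the broad peaks, and the H3K27me3 lines stay at or below 6.24% throughout.

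The reverse view gave another picture. The ΔLINC00662 list held 200 peaks of at least 2500 bp on the autosomes, 0.241 times the number in NC. They were 0.366% of its 54588 autosomal peaks, against 1.10% of the 75538 in NC. The ΔLINC00662 list was called at 0.815 of the NC depth, and the part of depth in these counts was not tested. After joining peaks at most 1 kb apart in both lists, an alternative added after seeing the data, there were 1604 against 3592 in NC, or 0.447 times. Of the 200 peaks before joining, 177 (88.5%, 95% Wilson interval 83.3 to 92.2) were covered over at least 50% by NC peaks. All 200 were met by at least 1 bp, and 117 touched a broad NC peak while 83 did not. The share covered over all ΔLINC00662 peaks is not given here, and the NC list is the larger, with 49.1 Mb on the autosomes against 29.6 Mb. On chromosome 19 lay 24.5% of the 200, and 20.5% overlapped a zinc finger gene. These 2 shares over all 54588 autosomal ΔLINC00662 peaks are not given here, so no enrichment among the 200 can be read from them. Input above 5 times the genome-wide level was found in 31.5% of the 200, against 12.8% of the 829.

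Of the 10 widest broad peaks, 5 overlapped zinc finger genes, 4 had input above 5 times the genome-wide level, and 1, on chromosome 21, did neither. The chromosome 21 peak of 15103 bp shown above had 42 fragments at its summit, an input level 1.32 times the genome-wide level and 74.7% of its bases in 6 ΔLINC00662 peaks. At chr16:46385804-46396926, chr16:46399262-46409141 and chr16:46419028-46431562, next to the centromere of chromosome 16, input was 48.2, 103 and 5.07 times the genome-wide level, and 86.1%, 72.1% and 63.3% of bases were covered in ΔLINC00662. The peak chr1:228744154-228753724, over an array of 5S ribosomal RNA genes, had input at 48.9 times and 99.7% of its bases inside 1 ΔLINC00662 peak of 9545 bp. The other 5 were those of ZNF544 and ZNF121, described above, and 3 that overlapped ZNF7 (61.3% covered), ZNF454 (70.9%) and ZNF286A (70.1%).

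Of the 24 broad peaks with no base in the ΔLINC00662 list, 22 measured under 3000 bp. The widest was the 3819 bp peak chr9:114302841-114306659 in ZNF483, with 27 fragments at its summit and a fold enrichment of 3.91. The next were chr5:150795524-150798835 (46 fragments, between protein-coding genes), chr7:146339701-146342699 in CNTNAP2 (29 fragments), chr2:98076917-98079801 (31 fragments) and chr14:72954964-72957838 in RGS6 (24 fragments). Their fold enrichments, between 3.91 and 6.05, spanned the median of all broad peaks, and none of the 5 had a base in an H3K27me3 list. At the other end, 9 were covered at 100%, 8 of them with input above 5 times the genome-wide level. The 5 widest of the 9, with 1 more of the same width as the last, were chr8:86745775-86750147, chr16:33237210-33241226, the LPA peak chr6:161037074-161040801, chr8:86814200-86817406 and chr19:58669063-58672138. In the first 4 the input stood at 28.2, 19.3, 8.71 and 34.8 times the genome-wide level, and in the last, 2585 bp from ZNF329, at 1.76 times.

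Coverage in the ΔLINC00662 list moved with input and base composition. Broad peaks with input up to 1.5 times the genome-wide level had 40.0% of their base pairs covered (n = 160), those up to 2.5 times 49.8% (n = 277), those up to 5 times 56.5% (n = 286) and those above 5 times 81.7% (n = 106). Over 5 groups of rising GC content, the share went from 46.2% in the lowest, with a median GC of 40.1%, through 51.7%, 52.1% and 56.3% to 67.9% in the highest, with a median GC of 53.5%. The share was 54.4% in zinc finger broad peaks and 54.9% in the others. It was 61.4% in the 238 broad peaks with under 50% of their 31-base words in single copy and 52.1% in the other 591, but 39.9% in the largest group of broad peaks with shared sequence. Peaks next to large assembly gaps had 68.4% covered and those within 2 Mb of a chromosome end 59.1%. Leaving out the 106 input-rich peaks lowered the share over all broad peaks to 50.3%. The part of input, GC content and copy number in the coverage was not tested.

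H3K27me3 peaks met the broad peaks about as often as all autosomal H3K9me3 NC peaks. They covered less of them than of the whole list. Their coverage was above that of the next narrower width class, but for coverage of at least 50% within counting error. By at least 1 bp, 10.1% of the broad peaks were met in H3K27me3 NC, 9.65% in ΔLINC00641 and 10.5% in ΔSETD5-AS1, against 9.93%, 8.99% and 9.96% of all autosomal H3K9me3 NC peaks. For peaks of 1500 to under 2500 bp the shares were 8.62%, 7.58% and 9.30%. A wider peak is more easily met by its length alone, so like rates at unlike widths are not like coverage. No base of 712 of the 829 (85.9%) lay in any H3K27me3 list. In H3K27me3 NC 5.47% of the broad-peak base pairs were covered, against 4.88% upon depletion of LINC00641 and 5.22% upon depletion of SETD5-AS1. Over all autosomal H3K9me3 NC peaks these shares were 6.61%, 5.93% and 6.43%. Coverage of at least 50% was reached by 39 broad peaks in H3K27me3 NC (4.70%, 95% Wilson interval 3.46 to 6.37), by 31 in ΔLINC00641 (3.74%, 2.65 to 5.26) and by 36 in ΔSETD5-AS1 (4.34%, 3.15 to 5.95). The shares of all autosomal H3K9me3 NC peaks that reached it were 7.69%, 6.95% and 7.6%. By this measure the broad peaks lay below the whole list, in which peaks under 500 bp are the most numerous. They lay above the 3537 peaks of 1500 to under 2500 bp. In the same order of lists, 4.03%, 3.47% and 3.98% of the base pairs of that class were covered. Coverage of at least 50% was reached by 3.70%, 3.17% and 3.39% of its peaks, which lie inside the Wilson intervals of the broad peaks. Without the 106 input-rich broad peaks, the H3K27me3 NC shares were 3.23% of base pairs and 2.63% of peaks. These are below the values of the narrower class, whose input-rich peaks were kept. In all, 26 broad peaks reached coverage of at least 50% in each of the 3 lists and 44 in at least 1. Zinc finger broad peaks had 0.436% of their base pairs in H3K27me3 NC, the other broad peaks 6.80%. Narrower peaks were split alike, with 0.521% in zinc finger genes and 6.99% outside them.

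The 39 broad peaks covered over at least 50% in H3K27me3 NC lay at LPA (6), in the REXO1L array (10) and elsewhere (23). Of the last, 22 were spread over 13 chromosomes other than chromosome 8. All 6 broad peaks in LPA were among them, each at 100% in H3K27me3 NC, and 10 came from the REXO1L array on chromosome 8 between 86562530 and 86829684, at 93.9% to 100%. LPA (chr6:160952514-161085307) had more of its body in H3K27me3 peaks than in H3K9me3 peaks: 42.1% in H3K27me3 NC, 36.8% in ΔLINC00641 and 39.8% in ΔSETD5-AS1, against 26.6% in H3K9me3 NC and 20.3% in ΔLINC00662. Its 31-base words occurred at a median of 6 places, and input under its 6 peaks was between 3.80 and 9.26 times the genome-wide level. In the REXO1L array the words occurred at a median of 11 places, input had a median of 23.8 times, and 99.1% of the base pairs were covered in ΔLINC00662 as well. Counting all 39, 28 had under 50% of their 31-base words in single copy, 20 had input above 5 times and 35 were also covered over at least 50% in ΔLINC00662. Without the input-rich peaks, 2.63% of the broad peaks reached 50% in H3K27me3 NC. Both marks called over the same reference copies cannot be told apart from marks on different copies of the repeat, since reads from the copies are pooled there.

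Among the 11 that were mostly single copy, and named after their values were seen, were chr10:132315047-132318470 (100% in H3K27me3 NC and ΔLINC00641, 81.2% in ΔSETD5-AS1), 332261 bp from the nearest protein-coding gene GLRX3, and chr5:5070527-5073055 in the noncoding gene LINC02121 (100% in each H3K27me3 list). Their input was 2.09 and 2.21 times the genome-wide level, and 63.5% and 59.4% of their bases lay in ΔLINC00662 peaks. At ZIM3, a zinc finger repressor gene at the imprinted PEG3 locus, chr19:57650851-57653831 had 71.7% in H3K27me3 NC, 52.9% in ΔLINC00641 and 38.1% in ΔSETD5-AS1.

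**Figure D5:**
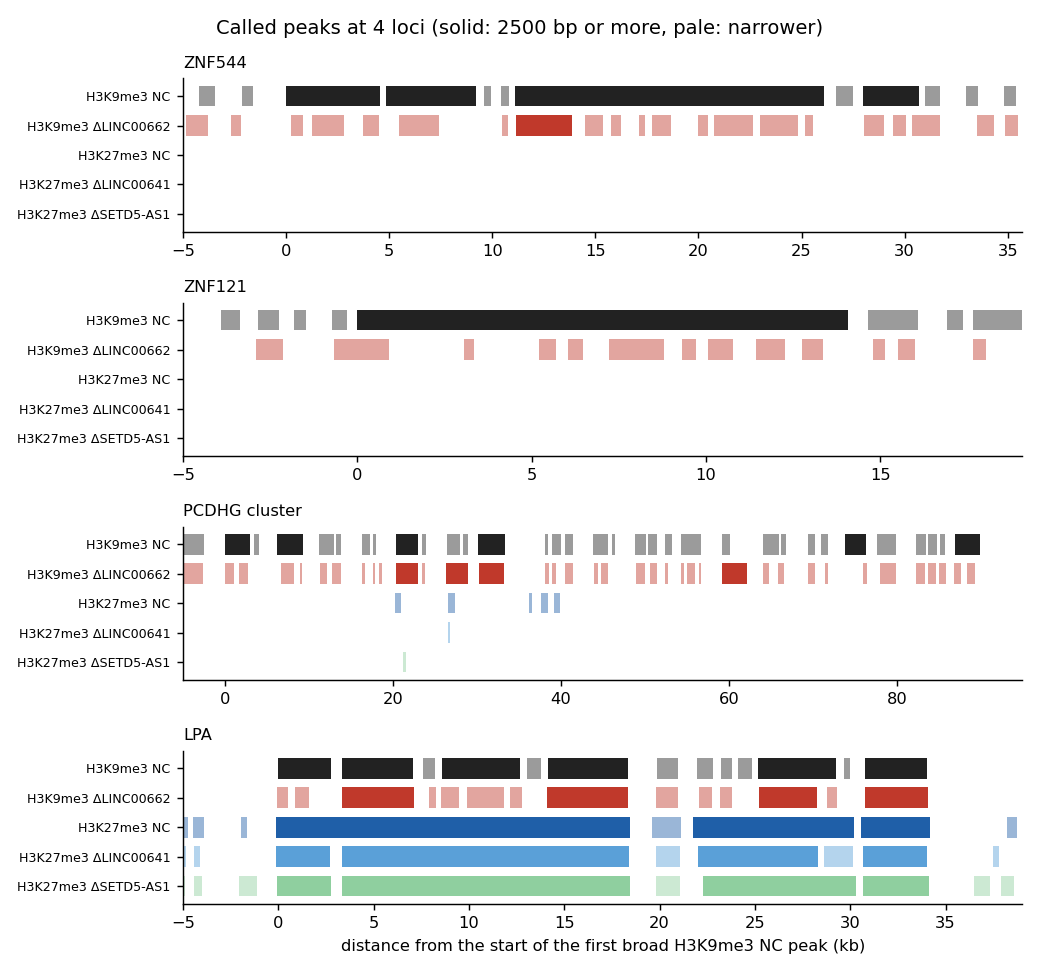
Called peaks of the 5 lists (rows) at ZNF544, ZNF121, the gamma protocadherin cluster and LPA, with distance in kb from the start of the first broad H3K9me3 NC peak on the x axis. Solid bars are peaks of 2500 bp or more and pale bars narrower ones: the 14967 bp and 14070 bp NC peaks of ZNF544 and ZNF121 are each met by 9 ΔLINC00662 peaks, and at LPA the H3K27me3 lists cover all 6 broad peaks over at least 92.3% of their length.

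Many broad peaks share their sequence. When peaks were linked if at least 20% of the 31-base words of the smaller set occurred in both, 130 of the 829 fell into 16 groups of 3 or more. The largest held 65 broad peaks on 18 chromosomes, 12 of them on chromosome 13, with a median of 1355 genomic places per word and 28 in protein-coding genes. ΔLINC00662 peaks covered 39.9% of its base pairs, below the 54.8% of all broad peaks, and 21 of the 65 reached 50%. The smaller groups were local arrays. They included 6 over CSPG4 pseudogenes on chromosome 15 with 80.1% covered in ΔLINC00662 and no base in H3K27me3, 5 on chromosome 19 around chr19:36773575-37787799 with 95.8%, and 4 over the 5S ribosomal RNA genes with 95.5%. Reads in such copies can be placed at any of them, so the height and width of these peaks are uncertain.

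Chromosome 13 differed from chromosome 19 in most respects. Of its 57 broad peaks, 42 lay between 60 and 80 Mb. There the median input was 4.13 times the genome-wide level, against 2.32 at the other 787 broad peaks, and over all H3K9me3 NC peaks of the stretch 1.76 against 1.32. The 42 had 50.7% of their base pairs in ΔLINC00662 peaks, against 55.0% elsewhere, and none in any H3K27me3 list. The median GC content was 42.9% against 46.1%. All 1527 H3K9me3 NC peaks of the stretch also had little H3K27me3, with 0.244% of their base pairs in H3K27me3 NC against 6.75% elsewhere. Their share in ΔLINC00662 peaks was 33.3% against 31.4% elsewhere, the other direction from the broad peaks. Whether the higher input there widened the called peaks was not tested.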

How the data were processed

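H3K9me3 and H3K27me3 ChIP-seq and input libraries of HEK293T cells (30 samples in 10 groups of 3) were grouped by their titles. Per the study's methods and the submitters' processing notes, adapters were cut with cutadapt 3.3, Bowtie2 2.4.2 was the aligner, hg19 the build and GATK the tool for duplicate reads. The authors pooled replicates and called peaks against input with MACS2 2.2.7.1. The authors deposited 5 peak lists with peak coordinates, the fold enrichment at the summit (a ratio with a pseudocount of 1), and −log10 p-values and −log10 q-values. Width, fold and coverage depend on depth, on the placement of reads in repeats and on the caller, which was run for narrow peaks and can split broad domains.

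Broad peaks were those of at least 2500 bp in the H3K9me3 NC list on chromosomes 1 to 22. Coverage is the share of a peak's bases inside peaks of another list. Fragments and local input at a summit were solved from the deposited fold enrichment and −log10 p-value, and gave whole fragments for 100% of peaks within 0.02 of the −log10 p-value. The genome-wide level is the lowest local input found in a list. Genes came from GENCODE 44 lifted to GRCh37, zinc finger genes by symbol. GC content, CpG, the linker word and the share of 31-base words in single copy were read from GRCh37, and repeat families were not annotated. Named peaks were the 10 widest, the 3 on each side of the width limit, and the 5 at each end of coverage; named genes were the 15 with the most broad-peak sequence and up to 4 per list. The broad peaks and gene lists were chosen with earlier results of these data known. Sequence windows of 3 further peaks are not reported here. Shares carry Wilson 95% intervals. No replicate-based test could be made. Scripts ran under Python 3.11.15 with scipy 1.17.1, pandas 2.3.3 and numpy 2.4.6, and their functions were tested on simulated data. Alternatives were other width limits, stricter q-values, merging of peaks within 1 kb, gene overlap by exon or summit, and leaving out chromosome 19 or input-rich peaks.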

Additional observations from a re-analysis of the deposited data

Results flagged for a closer look

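The comparisons above used chromosomes 1 to 22. Outside them the H3K9me3 NC list held another 97 peaks of at least 2500 bp, with a median width of 3033 bp. Of these, 72 lay on chromosome X, where 53.9% of their base pairs were inside ΔLINC00662 peaks and the median input was 2.54 times the genome-wide level. On unplaced and other contigs there were 23, with 84.0% inside ΔLINC00662 peaks and a median input of 15.7 times the genome-wide level.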

How the results depend on the processing

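Over 15 results and 68 alternatives, 43 values stayed within the interval of the main value (1.5 times for the counts, 1 SD over chromosomes for base pairs and GC content) and 25 moved beyond it. Merging NC peaks within 1 kb before the width limit raised the number of broad peaks from 829 to 3592. The number of broad ΔLINC00662 peaks relative to NC (0.241) was 0.447 after joining peaks within 1 kb in both lists, added after seeing the data. The share covered over at least 50% in ΔLINC00662 (55.5%) was 49.1% with a limit of 2000 bp, 60.6% with 3000 bp, 49.8% without input-rich peaks, 36.7% with ΔLINC00662 peaks of −log10 q of at least 5 and 67.8% after joining ΔLINC00662 peaks within 1 kb, an alternative added after seeing the data. The share of base pairs covered (54.8%) was 41.1% with the stricter q-value and 66.5% after joining. For H3K27me3 NC the share covered over at least 50% (4.70%) was 6.48% with a limit of 3000 bp and 2.63% without input-rich peaks. The share in zinc finger genes (18.6%) was 14.0% with a limit of 2000 bp, 24.2% with 3000 bp, 9.52% without chromosome 19 and 13.4% when an exon had to be met. The stricter q-value keeps fewer ΔLINC00662 peaks, and joining adds the gaps between them. The causes of the other moves were not tested. No paired analysis was possible because each list pools its libraries, and for the same reason no replicate could be left out. The median summit of 44 fragments limits the precision of each peak's edges.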
